A study of Mus musculus with 2 samples.

Results

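The genes described here are 55 G-protein-coupled receptors with known or proposed roles in pancreatic islets, among 34740 genes on the array. They were chosen by name, as every non-control probe whose gene name in the array files is one of the 55 symbols. All 55 were found, on 74 probes in 83 spots. The tested sample was CSE-KO, beta cells of C57BL/6J mice with a knockout of CSE (cystathionine gamma-lyase, the hydrogen sulfide-producing enzyme encoded by Cth), and it was set against CSE-WT, beta cells of wild-type C57BL/6J mice. Both groups were 6 months old and were fed a high-fat diet, so the diet is common to both and its effect cannot be read here. Each genotype had 1 array, hybridised with 1 Cy3-labelled sample. The sources used here do not give the number of animals pooled in a sample, the extent of the deletion, whether the knockout was limited to some cells, or how the beta cells were obtained.

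G-protein-coupled receptors span the membrane and pass the binding of a hormone, transmitter or metabolite to heterotrimeric G proteins. In beta cells, receptors coupled to Gs raise cyclic AMP and those coupled to Gq mobilise calcium, and both kinds strengthen glucose-stimulated insulin secretion. Receptors coupled to Gi lower cyclic AMP and restrain secretion, as those for adrenaline, somatostatin and galanin do.

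Neither of the 2 Cth probes cleared the background. They read 3.15 and 3.68 intensity units on the CSE-KO array, against 13.5 and 12.8 units on the CSE-WT array. Where these probes lie relative to the deletion is not known here, so they do not check the genotype. Of the beta-cell markers, 9 of 9 were well above background on both arrays, and so were 6 of 6 alpha-cell, 7 of 7 acinar and 6 of 6 macrophage markers. Markers of other cell types thus gave signal in both samples, and some of it was strong. Ins1 read 482701 units in CSE-KO and 503410 in CSE-WT, and Ins2 330923 in CSE-KO and 332046 in CSE-WT. The alpha-cell gene Gcg read 360773 units in CSE-KO and 381292 in CSE-WT, more than Ins2. The acinar gene Amy2a5 read 149025 units in CSE-KO and 191897 in CSE-WT. Brightness of different probes does not give cell numbers. Fewer cells of a type cannot be told apart from less RNA per cell in any difference below.

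Some receptor probes are shown because results rest on a single probe, or on probes that overlap or differ. The array carries 60-base oligonucleotides, printed here 5′ to 3′ as the files give them, with their mm9 coordinates. Where a probe lies within its transcript's exons was not determined here. The 2 probes of Glp1r overlap by 55 bases, and capitals mark the 3 overlapping bases that differ between them.
Glp1r, first probe, chr17:31073261-31073320, plus strand: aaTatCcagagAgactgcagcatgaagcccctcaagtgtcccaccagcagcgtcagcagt
Glp1r, second probe, chr17:31073256-31073315, plus strand: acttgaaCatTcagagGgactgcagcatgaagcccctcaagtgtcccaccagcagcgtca
In the next probes, capitals mark the longest run of bases shared with a probe of any other gene on the array. Galr2 is shown for its large difference, Sstr2 for its detection on 1 array, and Adora2b and Gabbr1 because probes of these genes differed in direction.
Galr2, chr11:116144714-116144773, plus strand: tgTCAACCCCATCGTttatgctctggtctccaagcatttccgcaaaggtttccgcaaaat
Sstr2, chr11:113486505-113486903, plus strand, spliced: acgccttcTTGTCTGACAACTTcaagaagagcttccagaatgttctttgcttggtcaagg
Adora2b, chr11:62078754-62078813, plus strand: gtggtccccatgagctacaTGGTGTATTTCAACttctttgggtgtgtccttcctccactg
Gabbr1, upstream probe, chr17:37206959-37207018, plus strand: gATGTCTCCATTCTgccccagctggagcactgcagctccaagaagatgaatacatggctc
Gabbr1, middle probe, chr17:37209174-37209232, plus strand: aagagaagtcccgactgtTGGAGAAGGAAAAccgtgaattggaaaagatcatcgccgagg
The shared runs were 13 bases in Galr2 and both Gabbr1 probes and 14 bases in Sstr2 and Adora2b. The comparison was with other array probes only, not with transcripts, so these runs do not show what a probe binds.

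Most of the receptors gave a signal. On the CSE-KO array 49 of 55 (89.1%) were well above background by the scanner software's flag, against 46 of 55 (83.6%) on the CSE-WT array. The same flag was met by 67.4% of all genes on the CSE-KO array and 65.4% on the CSE-WT array. All 46 receptors seen on the CSE-WT array were measured on both arrays. They are 83.6% of the 55, where 63.7% of all genes were measured on both. Sstr2, Galr2 and Htr2b reached it with the CSE-KO sample alone. The floor was lower there, the dimmest gene probe to meet the flag reading 14.5 units in CSE-KO and 17.7 in CSE-WT. Over all genes, 3.58% met the flag with CSE-KO alone and 1.56% with CSE-WT alone. The receptors found on neither array were Adra2c, Htr1b, Htr2a, P2ry2, Ptger1 and Ptger2. Their probes read 3.27 to 9.40 units on the CSE-KO array and 3.95 to 17.5 units on the CSE-WT array.

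**Figure D1:**
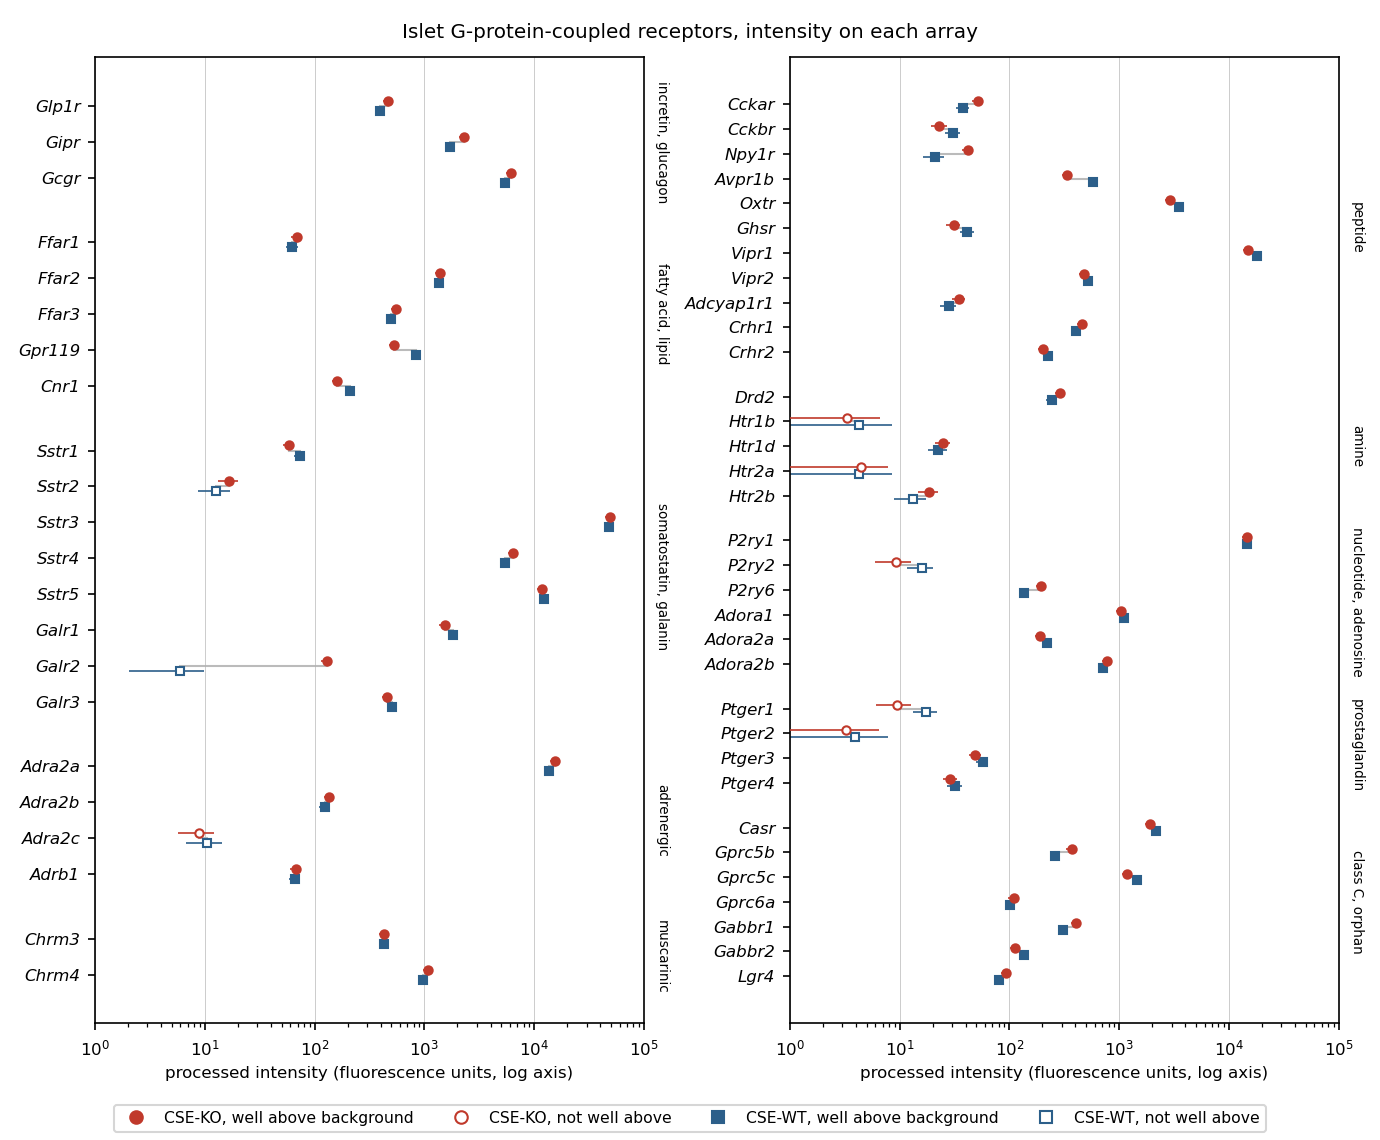
Processed intensity (fluorescence units, log axis) of each of the 55 receptors on the CSE-KO array (circles) and the CSE-WT array (squares), 1 array each, by receptor group. Filled symbols are well above background, open symbols are not, and bars are the error given by the scanner software, ended at the axis where they reach 0. The pairs lie close together except for Galr2, at 129 units on the CSE-KO array and 5.92 on the CSE-WT array.

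No receptor measured on both arrays differed by as much as 2-fold. Differences are log2 intensities, CSE-KO minus CSE-WT, after each array was scaled to the 75th percentile of its gene probes (540 units on the CSE-KO array and 519 on the CSE-WT array), so equal raw intensities give a slightly negative difference. Among all 22139 measured genes, 0.718% were at least 2-fold higher in CSE-KO and 0.89% at least 2-fold lower. The median difference over the 46 receptors was -0.03 log2 units, against -0.01 over all measured genes. The receptors split into 21 higher and 25 lower in CSE-KO, where 48.6% of all measured genes were higher and 51.4% lower.

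Because each genotype had a single array, no difference could be tested and the error given is technical. It is the SD of a difference between single spots, taken from 390 probes printed 10 times. This spot SD was 0.21 log2 units for dim probes (scaled level -3) and 0.052 for bright ones (scaled level 3). Just above the 75th percentile (scaled level 0.15) it was 0.079. The median gene probe was dimmer than all of these levels, at 37.9 units in CSE-KO and 37.4 in CSE-WT. The spot SD was larger for such dim probes, for example 0.31 for Ghsr at 31.1 units in CSE-KO and 41.4 in CSE-WT. By more than 3 times this spot SD, 5 of the 46 receptors were higher in CSE-KO (Gipr, Sstr4, P2ry6, Gprc5b and Gabbr1), where 8.82% of all measured genes were. Another 8 were lower by that measure (Gpr119, Cnr1, Galr1, Avpr1b, Oxtr, Vipr1, Casr and Gprc5c), where 9.76% of all measured genes were. Both directions made 13 of 46 receptors, beside 18.6% of all measured genes. The counts were 3 higher and 7 lower with normexp background correction, without Sstr4, P2ry6 and Cnr1. Normexp added an offset of 50 units, which draws the differences of dim probes toward 0. Normexp ratios were still taken against the spot SD of values without that offset. With the probes of a gene averaged, the counts were 3 higher and 8 lower, without Gprc5b and Gabbr1. An average was set against the spot SD of a single spot at its mean level, not reduced for averaging, which makes passing harder. The spot SD is smaller for brighter probes, so passing it depends on the level. It covers spots within an array and says nothing of animals or preparations.

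**Figure D2:**
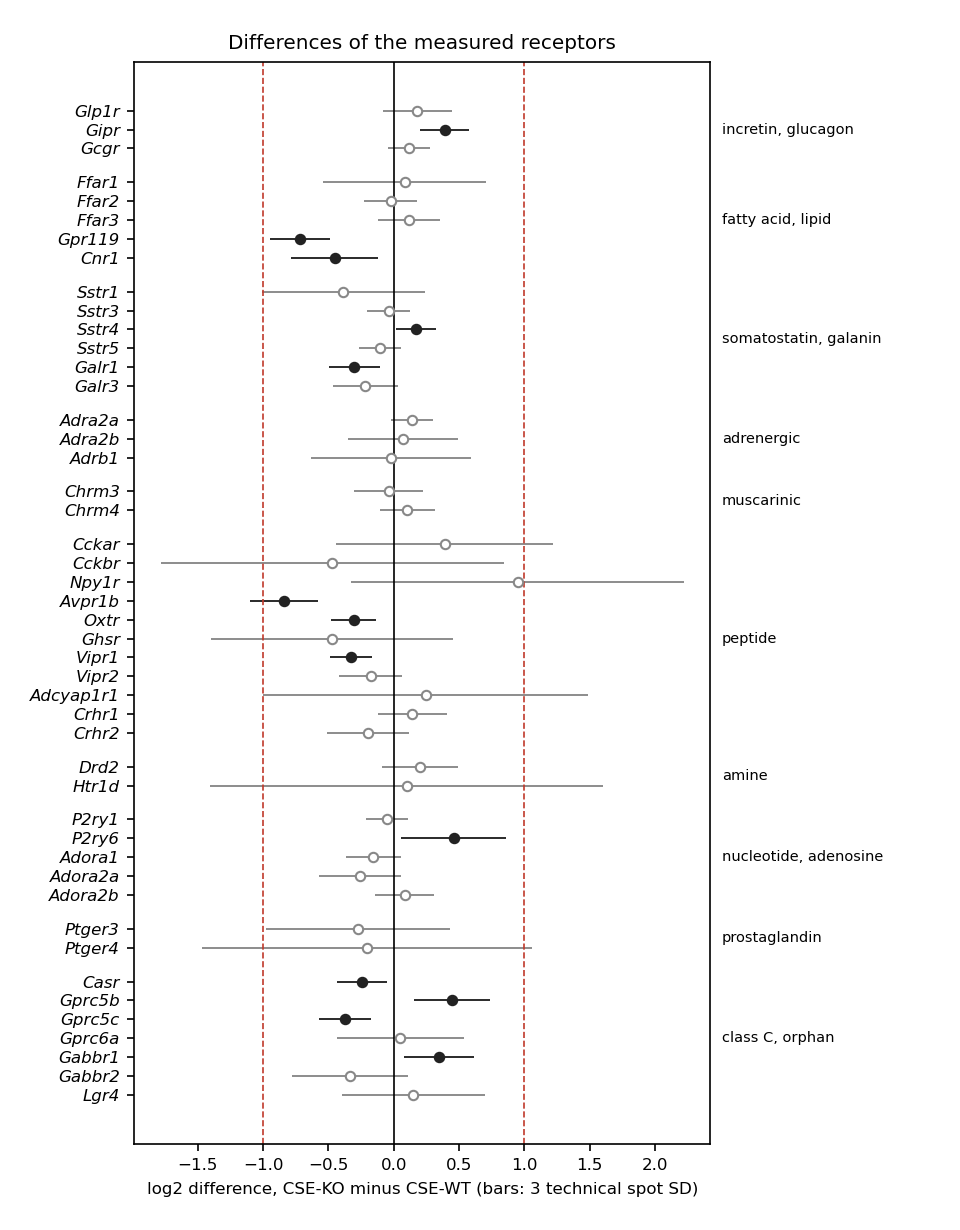
Log2 difference, CSE-KO minus CSE-WT, of the 46 receptors measured on both arrays, with bars of 3 technical spot SD; filled points lie beyond 3 spot SD and dashed lines mark 2-fold. The 13 filled points run from -0.84 (Avpr1b) to 0.46 (P2ry6), and the open point nearest to 2-fold is Npy1r at 0.95.

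The incretin and glucagon receptors, which couple to Gs and raise cyclic AMP, were all higher in CSE-KO by small amounts. Gipr, the receptor of the gut hormone GIP (chr7:19742486-19742545, minus strand), read 2318 ± 232 units in CSE-KO and 1703 ± 170 units in CSE-WT, where ± is the scanner software's error for the spot. Its difference of 0.39 log2 units (1.31-fold) was 6.18 times the spot SD. Glp1r, the receptor of glucagon-like peptide-1, read 464 units in CSE-KO and 394 in CSE-WT by the first probe above. By the second probe it read 178 units in CSE-KO and 152 in CSE-WT. Both probes gave a difference of 0.18, at 2.06 and 1.35 times the spot SD, but they overlap by 55 bases and are not independent. Glp1r differed by only 0.08 with normexp background correction. Gcgr, the glucagon receptor (chr11:120400221-120400280, plus strand), read 6103 units in CSE-KO and 5416 in CSE-WT, a difference of 0.12 or 2.22 times the spot SD. Of the 3, Gipr alone passed 3 times the spot SD.

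Among the fatty acid and lipid receptors, Gpr119 and Cnr1 were lower in CSE-KO and the free fatty acid receptors were near equal. Gpr119, a Gs-coupled receptor of lipid amides (chrX:46021196-46021255, minus strand), read 529 ± 52.9 units in CSE-KO and 835 ± 83.5 units in CSE-WT. It was 1.64-fold lower, a difference of -0.71 log2 units and 9.31 times the spot SD. Cnr1, the Gi-coupled cannabinoid receptor CB1, read 160.3 units in CSE-KO and 211 in CSE-WT, 1.37-fold lower at 4.06 times the spot SD, or 2.92 times with normexp. The dim spots nearest to it were higher in CSE-KO, by a median of 0.93 log2 units. Its other probe met the flag on neither array. Ffar1, the long-chain fatty acid receptor GPR40, read 69.1 units in CSE-KO and 62.7 in CSE-WT, 0.405 times the spot SD. The receptors of short-chain fatty acids were also close, with Ffar2 at 1399 units in CSE-KO and 1369 in CSE-WT and Ffar3 at 557 units in CSE-KO and 494 in CSE-WT. Their differences of -0.03 and 0.12 stayed within 1.5 times the spot SD.

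The somatostatin receptors, which couple to Gi and inhibit hormone release, differed little. Sstr3, which sits on the primary cilium of mouse beta cells, read 48698 units in CSE-KO and 48159 in CSE-WT, a difference of -0.04 that was within 1 spot SD and turned positive under quantile and cyclic loess scaling, normexp and in the authors' deposited table. Sstr5 read 11819 units in CSE-KO and 12251 in CSE-WT, a difference of -0.11. Sstr4 read 6350.4 units in CSE-KO and 5428 in CSE-WT, 0.17 higher and 3.32 times the spot SD, or 2.80 times with normexp. Sstr1 read 58.6 units in CSE-KO and 73.7 in CSE-WT, a difference of -0.39 at 1.86 times the spot SD, while its other probe met the flag on neither array. Sstr2, the main somatostatin receptor of rodent alpha cells, read 16.6 ± 3.53 units in CSE-KO and 12.7 ± 4.07 units in CSE-WT. It counted as above background in CSE-KO only, and its values overlap within their errors, so no fold is given.

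Of the galanin receptors, Galr1 and Galr3 were lower in CSE-KO and Galr2 was far brighter there. Galr2, a galanin receptor that can couple to Gq, read 129 ± 13.6 units in CSE-KO and 5.92 ± 3.90 units in CSE-WT, where it was not well above background. Set against the lowest signal above background on the CSE-WT array, it was at least 6.98-fold higher in CSE-KO. The value rests on a single spot. That spot was uneven in CSE-KO, with a pixel SD of 87.6 units around a mean raw signal of 201 over 40 pixels, a coefficient of variation of 43.6%. Among 3860 gene spots of like brightness on the CSE-KO array the median was 19.1%, and 1 of them, the Galr2 spot itself, reached 43.6%. In CSE-WT the same spot had a coefficient of 16.7%. The part of this unevenness in the Galr2 result was not tested. The Gi-coupled receptor Galr1 read 1524 units in CSE-KO and 1809 in CSE-WT, a difference of -0.30 at 4.62 times the spot SD. The Galr1 spot lay in a local bright patch of the CSE-WT array, where the 13 nearest dim spots differed by a median of -17.6 raw units. Galr3 read 454 units in CSE-KO and 508 in CSE-WT, a difference of -0.22 at 2.65 times the spot SD.

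The adrenergic and muscarinic receptors were close to equal. Adra2a, the Gi-coupled receptor by which adrenaline inhibits insulin release, read 15577 units in CSE-KO and 13619 in CSE-WT, a difference of 0.14 at 2.59 times the spot SD. Its difference was 0.08 with normexp, and 3.23 times the spot SD under median scaling and 3.32 times under cyclic loess. Adra2b read 135 units in CSE-KO and 124 in CSE-WT on a probe that shares a stretch of bases with a probe of another gene, so its signal may not be that of Adra2b alone. The beta-adrenergic receptor Adrb1 read 67.8 units in CSE-KO and 66.2 in CSE-WT. Its second probe, at 26.3 units in CSE-KO and 13.4 in CSE-WT, was above background in CSE-KO only. Chrm3, the Gq-coupled receptor through which acetylcholine strengthens insulin secretion, read 429 units in CSE-KO and 425 in CSE-WT. The Gi-coupled Chrm4 read 1080.0 units in CSE-KO and 967 in CSE-WT. None of the other differences in this group passed 3 times the spot SD.

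Peptide receptors held the largest decrease in fold among the measured receptors. Avpr1b, the Gq-coupled vasopressin receptor known in mouse islets for its effect on glucagon secretion (chr1:133508515-133508574, plus strand), read 337 ± 33.8 units in CSE-KO and 579 ± 58.1 units in CSE-WT. It was 1.79-fold lower, a difference of -0.84 log2 units and 9.60 times the spot SD. Oxtr, the oxytocin receptor, read 2924 ± 292 units in CSE-KO and 3481 ± 348 units in CSE-WT, 1.24-fold lower at 5.34 times the spot SD. Vipr1, a Gs-coupled receptor of vasoactive intestinal peptide and PACAP, read 14872 units in CSE-KO and 17968 in CSE-WT by its downstream probe (chr9:121581964-121582023), 1.26-fold lower at 6.23 times the spot SD. By the upstream probe (chr9:121579630-121579689) it read 283 units in CSE-KO and 289.7 in CSE-WT, a difference of -0.09 that was within 1 spot SD. The size of the Vipr1 difference therefore depends on the probe, and it came to -0.21 with the probes averaged.

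Alpha-cell markers were lower too, as Avpr1b, Oxtr, Vipr1 and Gpr119 were. This held for all 6, with 5 beyond 3 spot SD (9.76% of all measured genes were), and their median difference was -0.50 log2 units. Their summed intensity was 549544 units in CSE-KO and 596800.0 in CSE-WT, most of it from Gcg and Ttr. The part of alpha-cell RNA in the receptor differences was not tested.

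The other peptide receptors did not pass 3 times the spot SD. Npy1r, a Gi-coupled receptor of neuropeptide Y and peptide YY, read 41.9 ± 5.08 units in CSE-KO and 20.9 ± 4.38 units in CSE-WT. It was 1.93-fold higher, the largest increase in fold among the measured receptors, yet only 2.23 times the spot SD. The dim spots nearest to Npy1r were also higher in CSE-KO, by a median of 0.67 log2 units. With normexp the Npy1r difference was 0.23 log2 units, where an offset of 50 units alone draws so dim a probe toward 0. The ghrelin receptor Ghsr read 31.1 units in CSE-KO and 41.4 in CSE-WT. The cholecystokinin receptor Cckar read 51.5 units in CSE-KO and 37.8 in CSE-WT, with its spot in a local patch where the nearest dim spots were higher in CSE-KO by a median of 6.16 raw units. The gastrin receptor Cckbr read 23.0 units in CSE-KO and 30.6 in CSE-WT. Vipr2 read 483 units in CSE-KO and 525 in CSE-WT, a difference of -0.18, or -0.09 with normexp, and the PACAP receptor Adcyap1r1 read 34.5 units in CSE-KO and 28.0 in CSE-WT. Crhr1, the corticotropin-releasing hormone receptor, read 463 units in CSE-KO and 404 in CSE-WT, a difference of 0.14. Its other, dim probe read 43.4 units in CSE-KO and 29.99 in CSE-WT, a difference of 0.48 at 1.55 times the spot SD, and the average of both probes was 0.31. Crhr2, which receives urocortin 3 on mouse delta cells, read 203 units in CSE-KO and 223 in CSE-WT.

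Amine receptors were dim or near equal. The Gi-coupled dopamine receptor Drd2 read 289 units in CSE-KO and 242 in CSE-WT, a difference of 0.20 at 2.06 times the spot SD, or 0.10 with normexp. Htr1d read 25.0 units in CSE-KO and 22.5 in CSE-WT. Htr2b, the Gq-coupled serotonin receptor linked to beta-cell expansion in mouse pregnancy, read 18.5 ± 3.78 units in CSE-KO and 13.2 ± 4.19 units in CSE-WT. It met the background flag in CSE-KO only, by a margin within the errors of the spots, so no fold is given.

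P2ry6 was the nucleotide receptor that differed, and the only receptor measured by many spots. It is the Gq-coupled receptor of UDP (chr7:108086149-108086208, minus strand), and its probe was printed 10 times on each array. The 10 spots ran from 175 to 221 units with a median of 194 in CSE-KO and from 125 to 151 units with a median of 134 in CSE-WT. The mean was 196 ± 14.4 units in CSE-KO and 137 ± 8.23 units in CSE-WT (SD over 10 spots of 1 array), and the spots of the arrays did not overlap. P2ry6 was 1.38-fold higher in CSE-KO, 3.44 times the SD of a single-spot difference. With normexp its difference was 0.32 in place of 0.46 log2 units, or 2.41 times the spot SD. These spots are technical repeats of 1 sample per genotype. Macrophages also express P2ry6, and their markers were higher in CSE-KO in 6 of 6 cases, with a median of 0.35 and a summed intensity of 30586 units in CSE-KO and 23187 in CSE-WT. Their part in the P2ry6 value was not tested.

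The other purine receptors did not pass the spot noise. P2ry1, the Gq-coupled receptor of ADP, read 14522 units in CSE-KO and 14489 in CSE-WT, a difference of -0.05 that was within 1 spot SD and 0.07 with normexp. Adora1, the Gi-coupled adenosine receptor, read 1031 units in CSE-KO and 1105 in CSE-WT, a difference of -0.16 at 2.25 times the spot SD. The Gs-coupled Adora2a read 190.3 units in CSE-KO and 219 in CSE-WT. Its difference was -0.26 at 2.46 times the spot SD, or -0.14 with normexp. Adora2b read 782 units in CSE-KO and 709.8 in CSE-WT by the probe printed above and 596 units in CSE-KO and 620.1 in CSE-WT by a downstream probe, with differences of 0.08 and -0.11. Both were within 1.5 times the spot SD.

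Only 2 of the 4 receptors of prostaglandin E were measured, both dim. Ptger3, which couples to Gi and restrains insulin secretion, read 49.0 units in CSE-KO and 57.0 in CSE-WT. Its second probe read 43.4 units in CSE-KO and 53.3 in CSE-WT, and the differences were -0.27 and -0.35. The Gs-coupled Ptger4 read 29.0 units in CSE-KO and 32.2 in CSE-WT. All 3 probes were within 1.5 times the spot SD.

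In the class C and orphan receptors, members differed in both directions. Gprc5b, an orphan receptor of the retinoic acid-inducible family (chr7:126115825-126115884, minus strand), read 368 ± 36.9 units in CSE-KO and 259.8 ± 26.2 units in CSE-WT, 1.36-fold higher at 4.64 times the spot SD. Its second probe was also higher, by 0.28, and the average of both was 2.73 times the spot SD of a single spot, not reduced for averaging. Gprc5c, of the same family, was lower. It read 1177 ± 118 units in CSE-KO and 1467 ± 147 units in CSE-WT, 1.30-fold lower at 5.58 times the spot SD. That probe was designed to 1 of its RefSeq transcript variants, and an overlapping probe of the same variant gave -0.40. A probe of the other variant gave -0.49 at 44.7 units in CSE-KO and 60.3 in CSE-WT. Another probe of that other variant met the flag in CSE-KO only, with 17.7 units in CSE-KO, 17.4 in CSE-WT and a difference of -0.03. Casr, the calcium-sensing receptor, read 1900.0 units in CSE-KO and 2163 in CSE-WT, 1.18-fold lower at 3.86 times the spot SD.

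The subunits of the GABA-B receptor, which work as a pair, gave different signs. Gabbr1 read 408 ± 40.9 units in CSE-KO and 309 ± 31.1 units in CSE-WT by its most downstream probe, 1.27-fold higher at 3.84 times the spot SD. Its middle probe gave 69.4 units in CSE-KO and 43.9 in CSE-WT, a difference of 0.60. Its upstream probe was near equal, with a difference of -0.02. The average of the 3 was 0.31, or 2.08 times the spot SD of a single spot, not reduced for averaging. Gabbr2 was lower by all 3 probes, with differences of -0.31, -0.34 and -0.79, and the last, on a dim probe, was 3.18 times the spot SD. It read 113 units in CSE-KO and 137 in CSE-WT by the probe chosen for it, at 2.26 times the spot SD. Gprc6a read 109 units in CSE-KO and 102 in CSE-WT. Lgr4, the R-spondin receptor, read 93.2 units in CSE-KO and 80.8 in CSE-WT. Both lay within 1 spot SD.

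**Figure D3:**
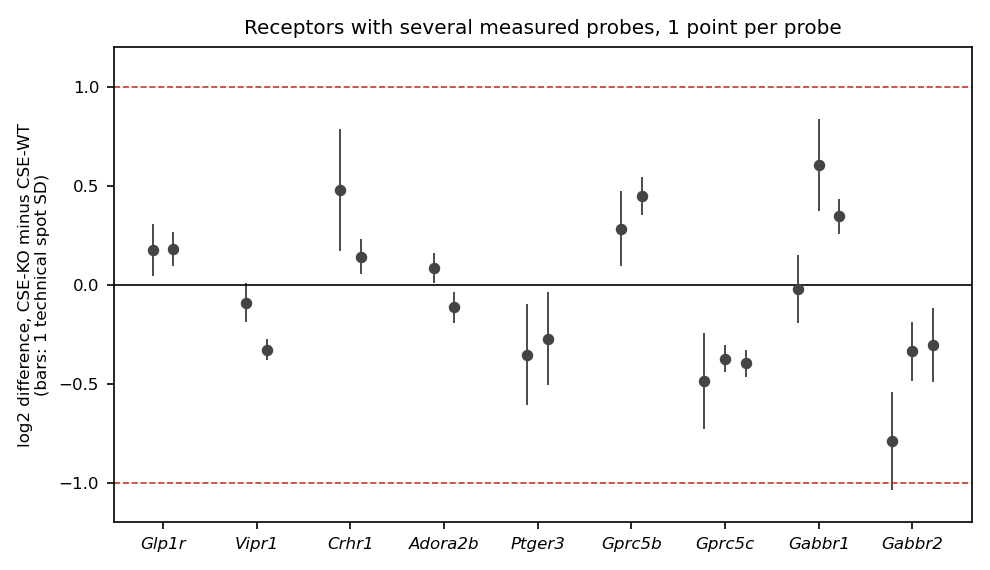
Log2 difference, CSE-KO minus CSE-WT, for each probe of the 9 receptors with at least 2 measured probes, ordered within a gene by position in the transcript, with bars of 1 technical spot SD and dashed lines at 2-fold. The probes of 7 receptors share a sign, and those of Adora2b and Gabbr1 do not.

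The ligands of these receptors differed in both directions. Of 20 ligand genes listed, 12 were measured, with 6 higher and 6 lower in CSE-KO and a median of -0.0011 log2 units. Past 3 times the spot SD, 2 were higher and 2 lower, where 8.82% of all measured genes were higher and 9.76% lower. Ghrl, the gene of the Ghsr ligand ghrelin, read 1408 units in CSE-KO and 541 in CSE-WT, 2.51-fold higher. Npy read 685 units in CSE-KO and 410.4 in CSE-WT, 1.61-fold higher, while Pyy, another ligand of Npy1r, read 122327 units in CSE-KO and 172223 in CSE-WT, 1.46-fold lower. Vip, the ligand of Vipr1 and Vipr2, was 1.26-fold lower. Gal, which encodes galanin, read 2453 units in CSE-KO and 2115 in CSE-WT, 2.57 times the spot SD. The genes of vasopressin (Avp) and PACAP (Adcyap1) were not well above background on either array.

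The G proteins, receptor kinases and arrestins that carry the receptor signal were all measured, 22 of 22, with 11 higher and 11 lower and a median of -0.01 log2 units. None passed 3 times the spot SD upward, where 8.82% of all measured genes did. Downward 5 passed it, where 9.76% of all measured genes did. Gnai1, an inhibitory alpha subunit, read 479 units in CSE-KO and 625 in CSE-WT, 1.36-fold lower. Grk5, a receptor kinase that starts desensitisation, was 1.21-fold lower, and the beta subunit Gnb5 differed by -0.26 log2 units. Gnaq, the Gq alpha subunit, was 1.16-fold lower and the inhibitory alpha subunit Gnai3 was 1.14-fold lower. Gnas, which encodes the Gs alpha subunit, read 99474 units in CSE-KO and 95299 in CSE-WT, a difference of 0.01.

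**Figure D4:**
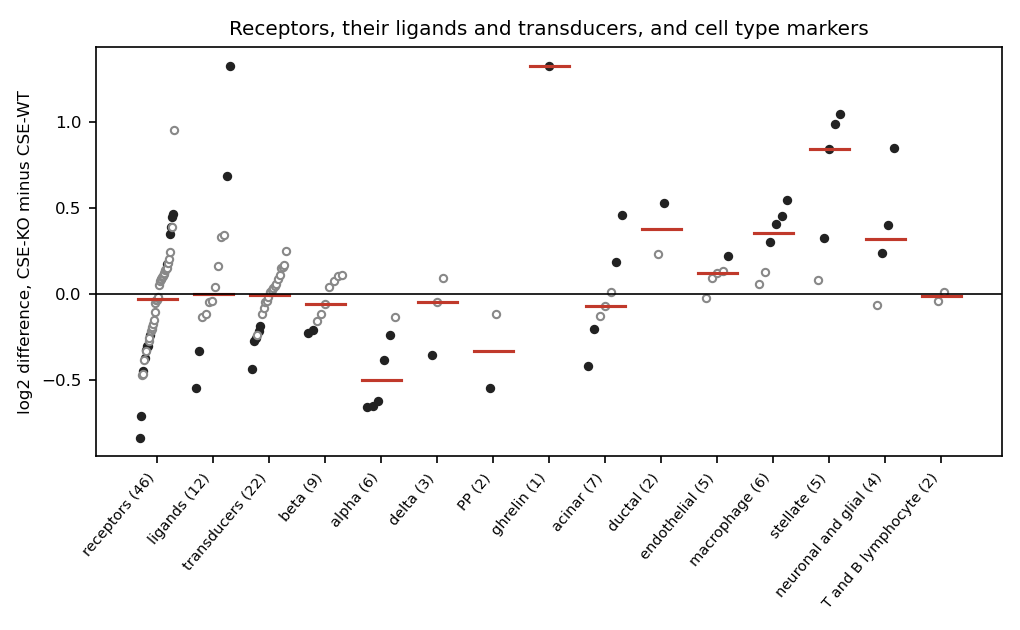
Log2 difference, CSE-KO minus CSE-WT, of each gene measured on both arrays (number in brackets) for the receptors, their ligands and transducers, and markers of 12 cell types; filled points lie beyond 3 spot SD and red lines are medians. Receptors, ligands and transducers have medians between -0.03 and 0, whereas alpha-cell markers sit below 0 and macrophage and stellate markers above it.

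Markers of other cell types differed as well. Beta-cell markers had a median of -0.06, with 2 of 9 lower beyond 3 spot SD (9.76% of all measured genes were). Delta-cell markers had a median of -0.05 (3 of 3 measured), PP-cell markers -0.33 (2 of 2) and acinar markers -0.07 (7 of 7). Endothelial markers had a median of 0.12 (5 of 5), stellate markers 0.84 (5 of 5), neuronal and glial markers 0.32 (4 of 5), ductal markers 0.38 (2 of 4, with Sox9 and Cftr on neither array) and lymphocyte markers -0.01 (2 of 5, with Cd3g and Ms4a1 on neither array). Ghrl, the single ghrelin-cell marker, is given above. Their part in the receptor differences was not tested.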

How the data were processed

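RNA was isolated with TRIzol, cleaned with a commercial kit, amplified and labelled with Cy3, per the labels' protocols. Per the file headers, arrays were quantified with Agilent Feature Extraction 10.7.1.1, whereas the submitters' processing notes name 9.5.1.1. The deposited files hold a spatially detrended processed intensity per spot with its error, raw signals and flags, on a linear scale. The authors' deposited table holds a normalized intensity per probe, whose exact steps are not given in the sources used here.

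Spots flagged as outliers were left out (169 gene spots on the CSE-KO array and 139 on the CSE-WT array), and no gene spot was saturated. The log2 processed intensity was averaged per probe and the 75th percentile over gene probes subtracted per array. A probe counted as measured when well above background on both arrays, and a gene took its brightest measured probe. A bound divides the bright array's value by the dim array's floor, which is its dimmest signal to meet the flag, or the probe's own if brighter. For 55678 probes, 27235 names came from accessions, 3581 from symbols, 565 from older symbols, and 24300 were kept. A spot was in a local patch when its 13 nearest spots under 20 units differed between arrays by over 1 log2 unit from the typical value. The spot SD was a running median over 41 probes. Only the 2-fold count was tried on simulated data, with spot noise added to differences set well past 2-fold. Their recovery was thus largely fixed in advance, and the other steps were not simulated. Tools were Python 3.11.15, R 4.3.3 and limma 3.58.1 (normexp with an offset of 50 units, quantile, cyclic loess).

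All 55 receptors are named, and ligands and transducers by a rule of at most 6 per list past 3 spot SD, with Gal, Avp, Adcyap1 and Gnas added after their values were seen. Ins1, Ins2, Gcg, Ttr, Amy2a5, Sox9, Cftr, Cd3g and Ms4a1 were named for the marker lists after their values were seen. Members and lists were chosen with earlier results of these data known. The number of arrays, 1 per genotype, limits the precision.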

Additional observations from a re-analysis of the deposited data

How the results depend on the processing

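The count of receptors past 2-fold was 0 in the measured set and became 1 of 55 with no filter on dim probes, through Galr2. With no filter, 1127 of all 34740 genes were at least 2-fold higher in CSE-KO and 1436 at least 2-fold lower. With detection set at the highest negative control spot, 42 receptors counted on the CSE-KO array in place of 49, 30 on the CSE-WT array in place of 46, and 30 on both in place of 46, where that control spot read 37.1 units in CSE-KO and 158 in CSE-WT. The median negative control spot read 3.11 units in CSE-KO and 3.86 in CSE-WT, so each cut rests on a single extreme spot. The share of all genes past this cut is not given here. Over the scaling choices, normexp, the authors' table, averaged probes, no dim filter and removal of patch probes, the counts of receptors higher and lower stayed within 1.5 times their reported values. The 13 receptors past 3 spot SD, 5 higher and 8 lower, became 10 with normexp (3 higher and 7 lower, Sstr4, P2ry6 and Cnr1 lost) and 11 with averaged probes (3 higher and 8 lower, Gprc5b and Gabbr1 lost). Normexp carried the offset of 50 units, and averages were set against a single-spot SD, so these losses depend partly on those choices. Adra2a was added under median scaling and cyclic loess, and Galr2 with no dim filter, while removing patch probes left Galr1 unmeasured. The median of receptors, reported as -0.03, was 0.0022 under median scaling, 0.0014 under quantile scaling and 0.0030 with the authors' deposited table. Of 366 receptor differences recomputed, 348 moved by less than 1 spot SD and 18 by more, 12 of these under normexp. The 46 with no dim filter and the 44 without patch probes kept their probe and value. Averaging left receptors with 1 measured probe unchanged, and median scaling shifted all by the same amount. Much of this stability was thus set in advance. The 13 kept their sign in every alternative run that measured them, some of which could not change it, whereas 9 others changed sign at least once. No paired analysis was possible because each genotype had 1 array, which also left no replicate to leave out.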

Other observations

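Several receptors were seen by some of their probes only. Of 14 receptors with several probes (33 probes), 8 had every probe measured on both arrays and 6 did not, namely Adrb1, Cckbr, Cnr1, Gprc5c, Sstr1 and Vipr2. In Vipr2, 1 of 3 probes was measured. The probe at base 3105 of its transcript read 483 units in CSE-KO and 525 in CSE-WT, the one at base 389 read 31.7 units in CSE-KO and 19.5 in CSE-WT, and the one at base 1549 read 14.3 units in CSE-KO and 6.66 in CSE-WT. The last 2 were not well above background on at least 1 array, and their signs were opposite to that of the measured probe (0.64 and 1.04, against -0.18), at 1.44 and 1.57 times the spot SD.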
